A study of Rattus norvegicus with 9 samples.

Results

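The genes described here serve the endoplasmic reticulum, the compartment in which secreted and membrane proteins are made, folded and loaded into transport vesicles, and its stress response. They were chosen by name from the deposited count table: the Sec11 to Sec63 families, the protein disulfide isomerases Pdia2 to Pdia6, the translocon-associated subunits Ssr1 to Ssr4, the signal peptidase subunits Spcs1 to Spcs3, the COPI coat, the Tmed family and 13 further symbols. This gave 61 of the 17337 genes in the table, and the rule itself uses names alone. No row stood under the symbol of 1 of the 13, Mia3 (the cargo receptor for procollagen), or under Pdia2, and neither was analysed here. RNA sequencing was done on cardiac fibroblasts, the matrix-producing cells of the heart, from Sprague Dawley rats of 3 ages: fetal at embryonic day 18, neonatal at postnatal day 1 and adult at 7 weeks. The labels name no transgene or drug treatment. All cells were freshly isolated (P0) and grown to confluency under 1 condition, DMEM with 10% fetal bovine serum, 0.1 mM ascorbic acid and antibiotics, so every group carries culture in serum and ascorbic acid, a cofactor of collagen hydroxylation. Each age had 3 libraries. The labels do not say whether these came from separate cultures or animals, whether animals were pooled or whether cells were sorted, so p-values measure only the spread between these libraries.

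In a secreting cell, ribosomes feed new proteins through the Sec61 channel, signal peptidase trims them, and chaperones such as BiP (encoded by Hspa5), calnexin and calreticulin fold them with the help of disulfide isomerases. COPII coats bud vesicles that carry cargo toward the Golgi, COPI coats return escaped residents, and the p24 proteins encoded by the Tmed genes help select cargo. When unfolded proteins accumulate, the sensors IRE1 (Ern1), ATF6 and PERK raise the transcription factors XBP1, ATF6 and ATF4, which act on chaperone, coat and degradation genes. Collagen is among the largest cargoes of this route, which makes it a heavily used one in fibroblasts.

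Library totals ran from 13392825 to 22850491 assigned counts. Levels are given as counts per 1000000 (CPM) on TMM-scaled library sizes, the trimmed-mean scaling of edgeR, and levels of different genes are compared only as CPM per kb of exon. Fetal replicate 3 stood apart from the other fetal libraries, at a distance of 77.5 and 77.1 from replicates 1 and 2, which lay 24.7 apart (Euclidean distance of log2 CPM over the 11337 genes tested), so results that rest on it are also given without it. Fibroblast markers summed to 26484 to 53231 CPM (fetal), 70646 to 76889 (neonatal) and 26657 to 34594 (adult), sums made mostly of Col1a1 and Col3a1. Of the 10 single markers 4 were higher and 2 lower in every adult library than in any other. One of them, Col1a2, was listed at no more than 0.976 CPM in any library beside 11890 to 40010 CPM of Col1a1, so a listing near 0 in this table does not by itself show that a gene was silent. Macrophage markers were higher in adult cells, with all 12 of 12 higher in every adult library than in any other and a summed level of 6.8 to 57.1 CPM (fetal), 143 to 157 (neonatal) and 3927 to 5638 (adult). Cardiomyocyte markers went the other way, with all 12 of the 12 in the table lower in every adult library, sums of 7328 to 10944 CPM (fetal), 5140 to 5696 (neonatal) and 304 to 319 (adult), and 6 of them (Myh6, Myh7, Tnni1, Myl2, Myl7 and Csrp3) at or below 3 counts in each adult library. The share of all genes that set the adult libraries apart in this way was not counted. Nearly all of the adult cardiomyocyte sum was Tnnt2, at 303, 310 and 315.5 CPM, with no other marker of that list above 0.898 CPM there. Other marker lists were also summed. Mural markers were at 269 to 701 CPM (fetal), 1178 to 1238 (neonatal) and 189 to 350 (adult), endothelial at 18 to 27.6, 30.5 to 34.8 and 99.8 to 120, epicardial or mesothelial at 58.3 to 62, 29.5 to 32 and 14 to 33, Schwann at 10.5 to 12.1, 10.1 to 11.3 and 13.5 to 16.1, and erythroid at no more than 0.216 in any library. The adult endothelial sum was mostly 1 gene, Tie1, at 69.9, 72.5 and 68.6 CPM. Of the 9 endothelial markers 5 were higher and 1 (Kdr) lower in every adult library than in any other. The part of these other cells in the adult differences given below was not tested, and in bulk RNA fewer cells of a type and less RNA per cell cannot be told apart.

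Most of the 61 genes were well expressed, and their summed level was lower in the adult libraries. The sum was 21306, 21525 and 21273 CPM in the fetal libraries, 20137, 20116 and 20238 in the neonatal and 18500, 18152 and 17927 in the adult libraries, so the 3 ages did not overlap. Calr was the member with the highest level per length at each age, 1093 ± 19.2, 1008 ± 4.0 and 1255 ± 56.1 CPM per kb (SD, n = 3) in fetal, neonatal and adult cells, followed at each age by Pdia3, Hspa5 and Hsp90b1. At the other end Tmed6, a p24 gene, had 0 counts in all 9 libraries and did not pass the filter on low counts, which left 60 members tested.

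Differences between ages were tested with edgeR's quasi-likelihood test over all 11337 genes that passed the filter, and a gene was called at an adjusted p under 0.05. Any difference among the 3 ages was called for 49 of the 60 members, beside 77.6% of all genes tested. Atf4, Dnajb9 and Sec31b were not called in that test (adjusted p = 0.0576, 0.0905 and 0.0553), though each was called in adult against fetal. In the adult against the fetal libraries 14 members rose, 34 fell and 12 were not called, while 34.9% of all genes rose and 35.5% fell. In the adult against the neonatal libraries 11 members rose, 27 fell and 22 were not called, beside 31.6% and 31.8% of all genes, and 7 rose without neonatal replicate 2. The members' median log2 fold change was -0.26 (adult against fetal) and -0.17 (adult against neonatal), where that of all genes was -0.01 in both. These comparisons share the adult libraries and are not independent.

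The changes were small ones by the standard of these data. Only 5 members were called with a log2 fold change of at least 1 in size between adult and fetal cells and 4 between adult and neonatal cells, where 32.4% and 25% of all genes tested reached that size. The median size among called genes was 0.52 for members and 0.92 for all genes in adult against fetal. In adult against neonatal it was 0.47 for members and 0.79 for all genes.

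Neonatal and fetal cells differed less. In that comparison 8 members rose, 12 fell and 40 were not called, beside 18.3% of all genes rising and 18% falling, the members' median log2 fold change was -0.05, and no member reached a log2 size of 1, which 11.2% of all genes did. These calls rested on few libraries: 5, 5 and 6 members were called without neonatal replicate 1, 2 or 3, and 27 (8 higher and 19 lower) without fetal replicate 3. The split also depended on scaling. With plain library size in place of TMM, which moved the median log2 fold change of all genes to -0.175 in neonatal against fetal and -0.122 in adult against fetal, 2 members rose and 29 fell in neonatal against fetal, and 9 rose and 39 fell in adult against fetal. Fold changes below are on the TMM scale, and every neonatal call named below has this limit. Shares of all genes called with a library left out or with plain library size are not given here. The member counts from those fits therefore do not set members apart from other genes.

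**Figure D1:**
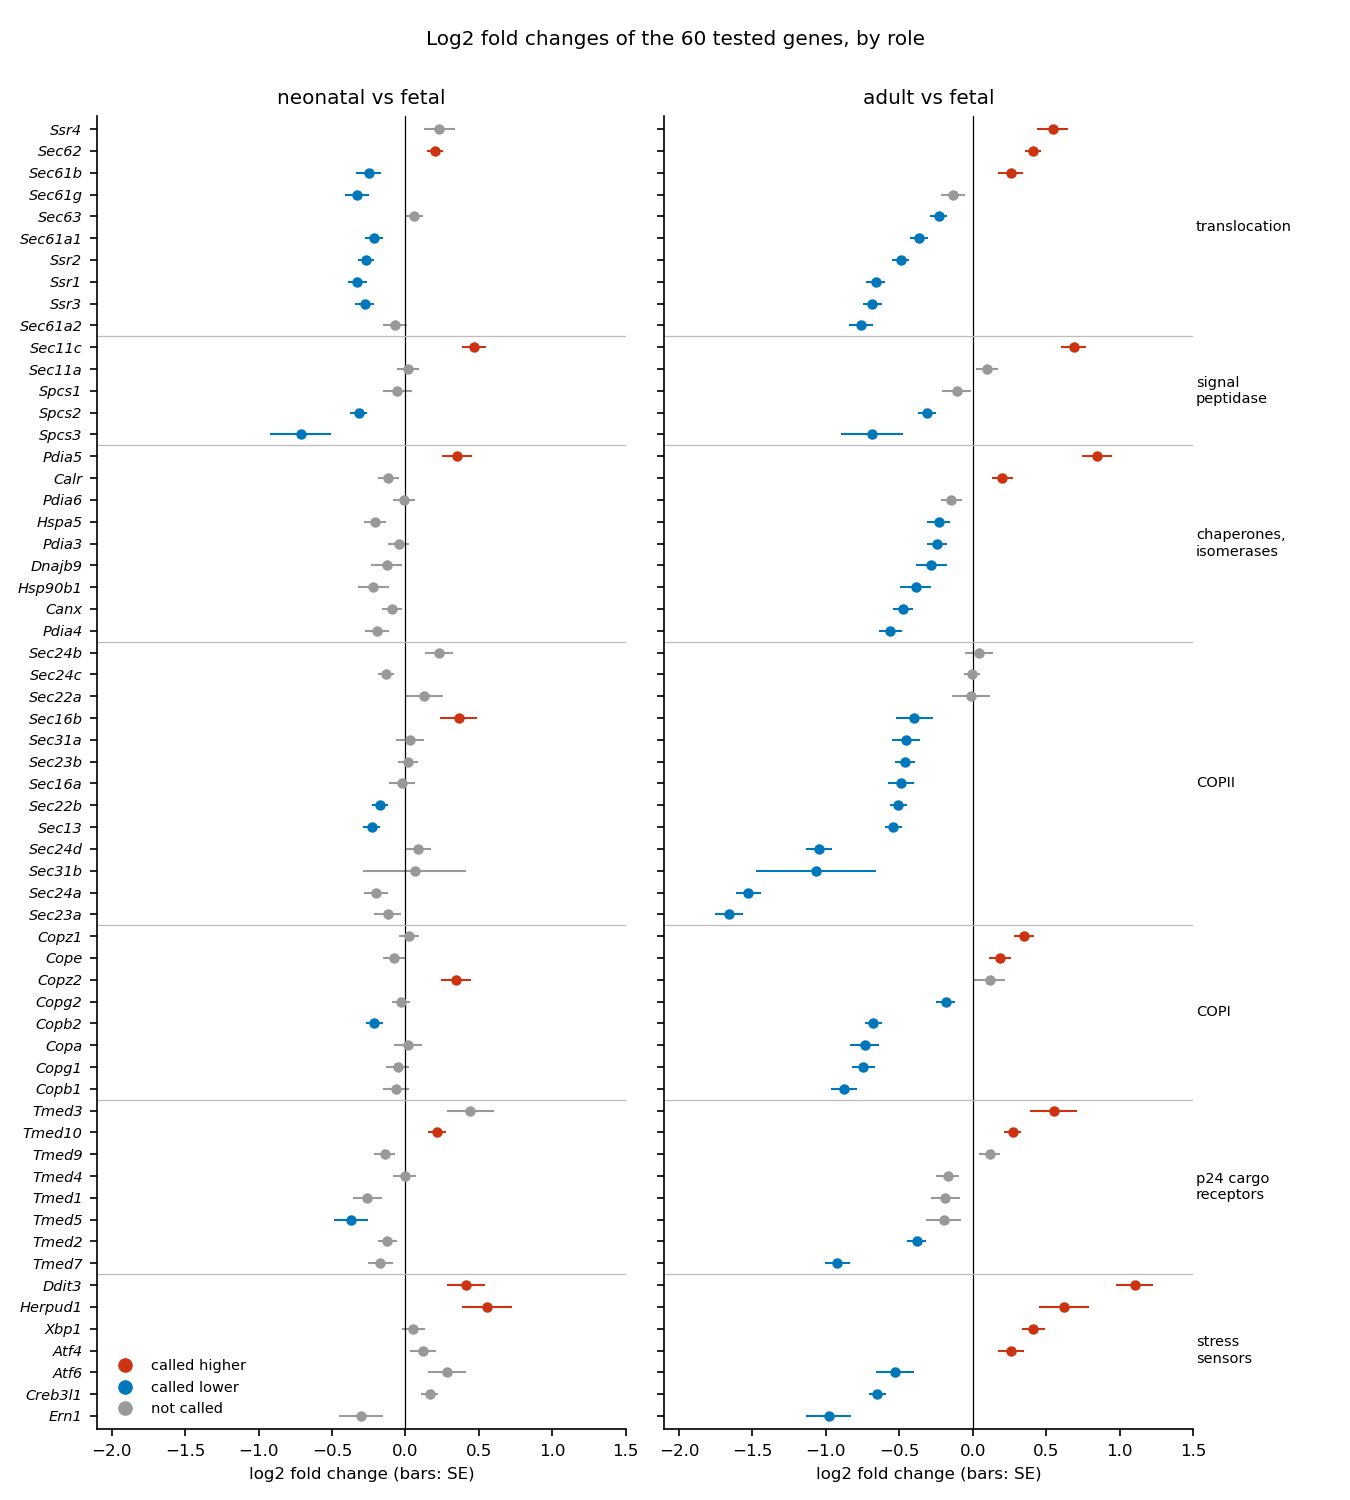
Log2 fold change of each of the 60 tested genes (horizontal axis, bars SE) in neonatal against fetal and adult against fetal cells, with genes in rows grouped by role and coloured by call (edgeR, adjusted p under 0.05). In neonatal against fetal 20 points are called and none passes 1 in size, while in adult against fetal 48 are called, with Sec23a at -1.66 and Ddit3 at 1.10 at the ends.

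The length of a gene's exons moved with its change in the adult cells. Among the 30 members with exons shorter than the members' median of 1990 bases, 14 rose and 7 fell in adult against fetal, whereas among the 30 longer ones 0 rose and 27 fell. Adult against neonatal cells gave 11 and 5 for the shorter genes and 0 and 22 for the longer. This split was not counted over all genes tested, so it has no baseline here. Across the 60 members, log2 fold change and log2 exon length had r = -0.511 (rho = -0.558) in adult against fetal, beside r = -0.167 (rho = -0.239) over all 11337 genes, and r = 0.000 in neonatal against fetal. These are correlations across genes, which are not independent replicates and here share their libraries. With the trend on length over all genes removed within each library, an alternative chosen after seeing the data, r among members was -0.093, and 10 members rose and 31 fell in adult against fetal. Of the 34 that fell before, 26 were still lower, 7 were not called and 1 (Sec63) was higher. Of the 14 that rose, 7 were still higher, 6 were not called and 1 (Cope) was lower. Shares of all genes rising and falling with the trend removed are not given. For members named below, its value is given where it changed a call in an adult comparison. For genes that are not members, values with the length trend removed or with 1 library left out are not given.

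**Figure D2:**
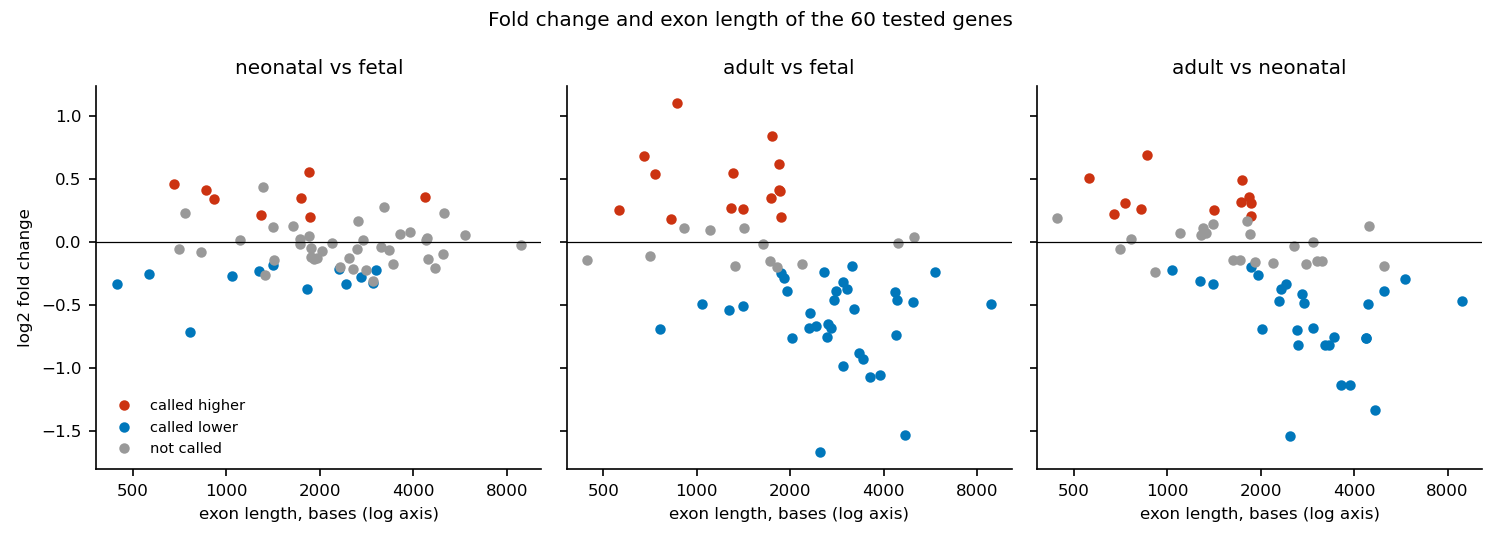
Log2 fold change (vertical axis) against exon length in bases (horizontal, log axis) for the 60 tested genes in the 3 comparisons, coloured by call. In both adult comparisons every called rise lies at the shorter lengths, below the median of 1990 bases, and in neonatal against fetal no slope is seen (r = 0.000).

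Of the 10 genes for moving proteins across the membrane, 3 rose, 6 fell and 1 was not called in adult against fetal cells, and the subunits of single complexes went different ways. Beside this and the role group counts below stand 34.9% of all genes rising and 35.5% falling in adult against fetal. The shares were 31.6% and 31.8% in adult against neonatal and 18.3% and 18% in neonatal against fetal. The translocon-associated protein complex, which sits beside the channel, had its alpha, beta and gamma subunits (Ssr1, Ssr2 and Ssr3) lower with each age and its delta subunit (Ssr4) higher in adults. Ssr3 was at 306, 337 and 312 CPM in fetal replicates 1 to 3, 249, 265 and 274 in the neonatal libraries and 202, 193 and 198 in the adult libraries. Ssr1 was at 358, 388 and 393 CPM (fetal), 293, 312 and 303 (neonatal) and 242, 246 and 233 (adult). The 3 ages did not overlap for either gene, with fetal libraries highest and adult lowest. Between fetal and adult cells Ssr3 fell by 37.7% (log2 fold change -0.68 ± 0.066, SE; adjusted p = 1.29e-05), Ssr1 fell by 36.8% (adjusted p = 1.31e-05) and Ssr2 fell by 28.9% (adjusted p = 4.01e-05), and all 3 were also called lower in neonatal against fetal, at -0.33 (Ssr1), -0.27 (Ssr2) and -0.28 (Ssr3). All 3 were still lower in adult against fetal with the length trend removed, at -0.63 (Ssr1), -0.76 (Ssr2) and -0.61 (Ssr3). Ssr4 stood at 187, 171 and 147 CPM in fetal replicates 1 to 3, 209.6, 193 and 192 in the neonatal libraries and 226, 234 and 278 in the adult libraries. Every adult library was above every fetal and neonatal one, with a rise over fetal of 1.46-fold (0.54 ± 0.11; adjusted p = 0.00128). With the length trend removed Ssr4 was not called against fetal (0.17, adjusted p = 0.146) and changed sign against neonatal (-0.09). Against neonatal cells the call was lost without neonatal replicate 2 or 3 or adult replicate 3 (log2 fold change 0.22 to 0.29).

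The Sec61 channel itself showed the same kind of mixture. Sec61a1, which encodes the main pore-forming subunit, was at 674, 656 and 633 CPM in fetal replicates 1 to 3, 554, 562 and 574 in the neonatal libraries and 498, 505 and 519 in the adult libraries. Fetal libraries were highest and adult lowest without overlap, and Sec61a1 fell by 22.5% in adult against fetal (-0.37 ± 0.061; adjusted p = 0.000453). Its paralog Sec61a2 held 13.2% ± 0.723 of the pair's level per length in fetal, 14.4% ± 0.382 in neonatal and 10.4% ± 0.794 (SD, n = 3) in adult cells. Sec61a2 fell by 41.0% in adult against fetal (-0.76 ± 0.082; adjusted p = 2.67e-05). The small beta subunit gene Sec61b was lowest in neonatal cells, at 115, 95.8 and 112 CPM in fetal replicates 1 to 3, 89.5, 89.6 and 92.3 in the neonatal libraries and 139.7, 122 and 124 in the adult libraries, and its 3 ages did not overlap. It rose 1.42-fold in adult against neonatal (0.51 ± 0.084; adjusted p = 0.000582), which was not called with the length trend removed (0.02). Against fetal its rise of 1.20-fold turned to -0.17 (log2) with the length trend removed, and the call was lost without fetal replicate 2 or adult replicate 1 (log2 fold change 0.18 to 0.20). Sec61g, the gamma subunit, was called in neonatal against fetal alone of the 3 comparisons (-0.33 ± 0.083; adjusted p = 0.0144), but with the length trend removed it was also called lower in adult against fetal (-0.62) and against neonatal (-0.37).

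Sec62 and Sec63 encode partners that open the channel for short or poorly targeted proteins, and they moved apart. Sec62 was at 137, 137 and 134 CPM in fetal replicates 1 to 3, 155, 155 and 158 in the neonatal libraries and 187, 173 and 182 in the adult libraries. It was higher at each later age without overlap, 1.33-fold in adult against fetal (0.41 ± 0.054; adjusted p = 0.000102), and with the length trend removed it was still higher, at 0.34. Sec63 was lower in adult against fetal (-0.23) and adult against neonatal cells (-0.29), but with the length trend removed it was called higher in both (0.22 and 0.18).

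Signal peptidase, the enzyme that cuts off signal peptides, has alternative catalytic subunits, SEC11A and SEC11C. Of its 5 members 1 rose, 2 fell and 2 were not called in adult against fetal. Sec11c was at 47.2, 48.5 and 46.4 CPM in fetal replicates 1 to 3, 62.4, 62.1 and 71.8 in the neonatal libraries and 69.8, 77.8 and 81.1 in the adult libraries. All fetal libraries were below all others, while the neonatal and adult libraries overlapped. Sec11c rose 1.38-fold in neonatal (0.46 ± 0.082; adjusted p = 0.00273) and 1.61-fold in adult against fetal cells (0.69 ± 0.082; adjusted p = 5.46e-05), and its smaller difference between adult and neonatal cells (0.22) turned to -0.20 with the length trend removed, where the adult rise over fetal was 0.29 and still called. Sec11a was not called in any comparison, at 148 to 175 CPM in the fetal and 170 to 185 CPM in the adult libraries. Sec11c therefore held 32.0% ± 1.63 of the pair's level per length in fetal, 39.0% ± 1.80 in neonatal and 41.4% ± 1.47 (SD, n = 3) in adult cells.

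Of the accessory subunits, Spcs2 and Spcs3 fell and Spcs1 was not called, at -0.11 ± 0.10 in adult against fetal (adjusted p = 0.344), although with the length trend removed it was called lower in adult against fetal (-0.49) and against neonatal (-0.47). Spcs2 was at 184, 183 and 197 CPM in fetal replicates 1 to 3, 150.1, 148 and 155 in the neonatal libraries and 151, 145 and 158 in the adult libraries, with every fetal library above the rest, and fell by 19.8% in neonatal (adjusted p = 0.00363) and 19.5% in adult against fetal cells (adjusted p = 0.00113). Spcs3, needed for the enzyme's stability, was at 25.3, 27.1 and 45.4 CPM in fetal replicates 1 to 3, 20.5, 20.1 and 19.0 in the neonatal libraries and 22.3, 20.9 and 17.5 in the adult libraries. Fetal replicate 3 was far above the other 2 fetal libraries. The fall in adult against fetal (-0.69 ± 0.21; adjusted p = 0.0152) was -0.38 without that library and still called, and the call was lost without adult replicate 3 (log2 fold change -0.59). The fall in neonatal against fetal was -0.71 with and -0.40 without fetal replicate 3.

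Among the 9 chaperone and isomerase genes, 2 rose (Calr and Pdia5), 6 fell (Canx, Hsp90b1, Hspa5, Pdia3, Pdia4 and Dnajb9) and 1 (Pdia6) was not called in adult against fetal cells, and 1 rose and 0 fell in neonatal against fetal. Hspa5, which encodes BiP, the Hsp70 chaperone of the compartment, was at 2016, 2047 and 2154 CPM in fetal replicates 1 to 3, 1766, 1780.0 and 1837 in the neonatal libraries and 1853, 1779 and 1656 in the adult libraries. Fetal libraries were above all others, and neonatal and adult overlapped. Hspa5 fell by 14.9% in adult against fetal (-0.23 ± 0.076; adjusted p = 0.0203), but the call was lost without adult replicate 3 (log2 fold change -0.19) and with the length trend removed (-0.18). In neonatal against fetal it missed the threshold, at -0.21 ± 0.076 (adjusted p = 0.0586). Adult and neonatal cells were at -0.03 ± 0.076 of each other on the log2 scale (adjusted p = 0.786), a value whose sign turned with plain library-size scaling, with the length trend removed and without adult replicate 3.

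Hsp90b1 encodes GRP94, the Hsp90 of the compartment. It was at 2033, 2117 and 2633 CPM in fetal replicates 1 to 3, 1938, 1942 and 1948 in the neonatal libraries and 1799, 1763 and 1617 in the adult libraries. Fetal replicate 3 was highest of all 9 and the adult libraries were the 3 lowest. It fell by 23.6% in adult against fetal (-0.39 ± 0.11; adjusted p = 0.00861), and the fall was -0.27 and still called without fetal replicate 3.

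The lectin chaperones calnexin and calreticulin bind the same sugar chains, the first as a membrane protein and the second in the lumen, and their genes moved in opposite directions. Calr was at 2037, 2002 and 2074 CPM in fetal replicates 1 to 3, 1888, 1877 and 1874 in the neonatal libraries and 2451, 2329 and 2242 in the adult libraries. Canx was at 1206, 1282 and 1278 CPM in fetal replicates 1 to 3, 1161, 1187 and 1187 in the neonatal libraries and 916, 922 and 874 in the adult libraries. The adult libraries were the 3 highest for Calr and the 3 lowest for Canx. Calr rose 1.25-fold in adult against neonatal (0.32 ± 0.072; adjusted p = 0.00368) and 1.15-fold against fetal (0.20 ± 0.072; adjusted p = 0.0306). That second call was a marginal one: it was lost without fetal replicate 1 or 2, neonatal replicate 1, 2 or 3 or adult replicate 1 or 2 (log2 fold change 0.17 to 0.20), and it was not called with the length trend removed (0.14) or with plain library-size scaling (0.09). Canx fell by 28.0% against fetal (-0.47 ± 0.066; adjusted p = 0.000151) and 23.3% against neonatal (-0.38 ± 0.066; adjusted p = 0.00076). With the length trend removed Canx was not called in either, at -0.12 against fetal and 0.01, a changed sign, against neonatal. Its exons span 4986 bases and those of Calr 1865.

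**Figure D3:**
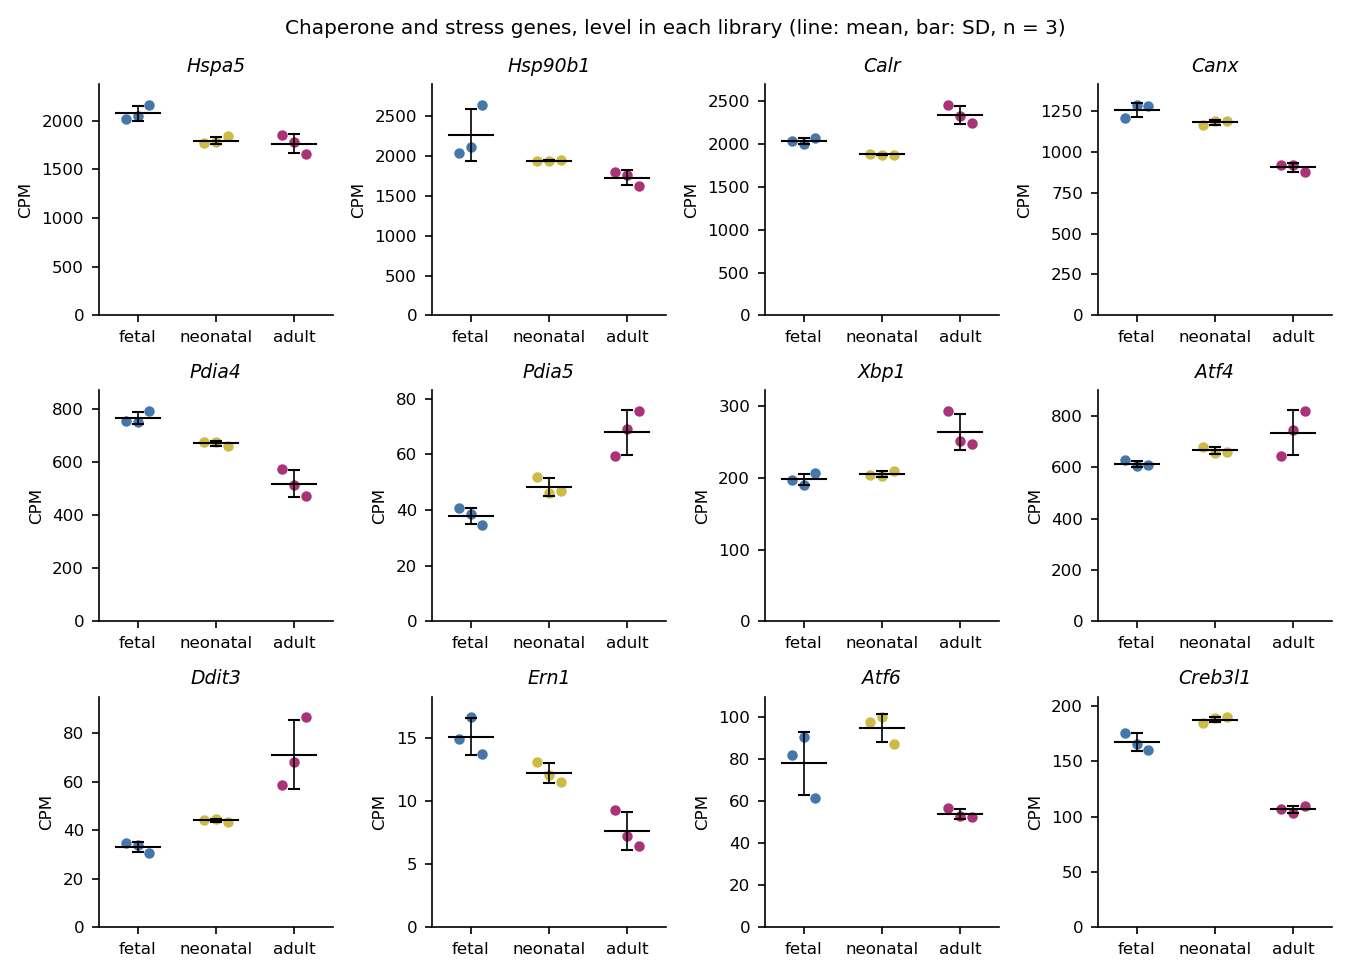
Level in CPM (vertical axes from 0) of 12 chaperone and stress genes in each of the 9 libraries, with points for libraries, lines for means and bars for SD (n = 3). Calr, Pdia5, Xbp1 and Ddit3 are highest in the 3 adult libraries, Canx, Pdia4, Ern1, Atf6 and Creb3l1 lowest, and fetal replicate 3 is the high point of Hsp90b1.

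Disulfide isomerases also divided. Pdia5 was at 40.5, 38.5 and 34.6 CPM in fetal replicates 1 to 3, 51.9, 46.1 and 47.0 in the neonatal libraries and 59.4, 69.2 and 75.4 in the adult libraries. The ages did not overlap and rose in order, 1.80-fold in adult against fetal (0.84 ± 0.10; adjusted p = 6.06e-05), and the adult rise was also called with the length trend removed (0.76). Pdia4 was at 755, 749.7 and 789 CPM in fetal replicates 1 to 3, 674, 674 and 659.5 in the neonatal libraries and 573, 512 and 470.0 in the adult libraries. It fell by 32.2% in adult against fetal (-0.56 ± 0.081; adjusted p = 0.000185) and by 22.6% against neonatal, with no overlap between ages. Pdia3, the partner of calnexin and calreticulin, fell by 15.5% in adult against fetal (adjusted p = 0.0118). Against neonatal cells Pdia3 was at -0.20 (adjusted p = 0.0343), where the call was lost without neonatal replicate 1, 2 or 3 or adult replicate 2 or 3 (log2 fold change -0.21 to -0.16). Pdia6 lay at 882 to 926 CPM in fetal and 768 to 885 CPM in adult libraries, which overlapped, and was not called, but with the length trend removed it was called lower in adult against fetal (-0.24) and against neonatal (-0.21). Dnajb9 encodes ERdj4, a BiP cochaperone. It was at 28.5, 31.3 and 29.9 CPM (fetal), 27.4, 27.2 and 27.6 (neonatal) and 28.5, 24.1 and 21.2 (adult), and its fall in adult against fetal (-0.28 ± 0.11; adjusted p = 0.0385) had overlapping libraries: the call was lost without fetal replicate 2, neonatal replicate 1, 2 or 3 or adult replicate 2 or 3 (log2 fold change -0.28 to -0.18).

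The COPII coat, which builds the vesicles that leave for the Golgi, had the members with the greatest falls. Of its 13 genes 0 rose, 10 fell and 3 (Sec22a, Sec24b and Sec24c) were not called in adult against fetal cells, and adult against neonatal cells gave 0, 10 and 3 with the same names. Their median log2 fold change was -0.49 against fetal and -0.48 against neonatal, where all genes had -0.01. In neonatal against fetal cells the median was 0.02, with 1 rise (Sec16b) and 2 falls (Sec13 and Sec22b). The summed COPII level was 2091, 2094 and 1797 CPM in fetal, 1963, 1982 and 1935 in neonatal and 1286, 1314 and 1308 in adult libraries. Fetal and neonatal sums overlapped and the adult sums were far below both. With the length trend removed, Sec13, Sec22b, Sec23a, Sec23b, Sec24a and Sec24d were still called lower in adult against fetal. Sec16a, Sec16b, Sec31a and Sec31b were then not called, and Sec24b and Sec24c were called higher.

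Sec23a encodes an inner-coat subunit whose loss in people causes cranio-lenticulo-sutural dysplasia, a skeletal disorder with collagen held back in the reticulum. It lies at chr6:80060914-80107236 on rn6 and was at 228, 244 and 187 CPM in fetal replicates 1 to 3, 205, 204 and 198 in the neonatal libraries and 68.0, 72.2 and 68.4 in the adult libraries. The adult libraries were the 3 lowest by a wide margin, and fetal and neonatal overlapped. Sec23a fell by 68.3% against fetal (-1.66 ± 0.095; adjusted p = 4.65e-07) and 65.6% against neonatal (-1.54 ± 0.095; adjusted p = 1.37e-06). Its paralog Sec23b was at 118, 118 and 106 CPM in fetal replicates 1 to 3, 115, 117 and 114 in the neonatal libraries and 78.9, 81.8 and 87.5 in the adult libraries. It also fell without overlap, by 27.3% against fetal (-0.46 ± 0.066; adjusted p = 0.000189). Sec23a thus held 68.0% ± 1.74 of the pair's level per length in fetal, 66.0% ± 0.396 in neonatal and 48.3% ± 1.6 (SD, n = 3) in adult cells, and the adult shares (46.4% to 49.5%) did not overlap the others. With the length trend removed Sec23a was at -1.62 and Sec23b at -0.38 against fetal, both called.

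The 4 Sec24 genes, whose proteins read the export signals of cargo, split into pairs. Sec24a, at chr10:37140723-37215899 on rn6, was at 76.7, 79.4 and 66.7 CPM in fetal replicates 1 to 3, 65.3, 66.6 and 61.6 in the neonatal libraries and 26.9, 26.3 and 23.9 in the adult libraries. Sec24d, the form most tied to collagen export and to a brittle-bone syndrome, lies at chr2:227455723-227562801 and was at 402, 408 and 333 CPM in fetal replicates 1 to 3, 403, 412 and 395 in the neonatal libraries and 179, 177 and 197 in the adult libraries. Adult libraries were lowest for both genes with no overlap. Sec24a fell by 65.3% (-1.53 ± 0.086; adjusted p = 4.21e-07) and Sec24d by 51.7% (-1.05 ± 0.089; adjusted p = 5.68e-06) in adult against fetal, and by 60.1% and 54.4% against neonatal. Sec24b was at 88.0, 90.8 and 71.8 CPM (fetal), 98.6, 103 and 92.5 (neonatal) and 84.9, 90.8 and 82.1 (adult). Sec24c was at 166, 165 and 175 CPM (fetal), 154, 154 and 153 (neonatal) and 169.9, 171 and 164 (adult). For both genes adult and fetal libraries overlapped. Neither was called in adult against fetal, at 0.04 ± 0.094 (adjusted p = 0.713) and -0.00 ± 0.054 (adjusted p = 0.953), although with the length trend removed both were called higher, at 0.40 and 0.29, while Sec24a and Sec24d were lower at -1.20 and -0.82. Sec24c was then also called higher in adult against neonatal (0.47). Sec24d held 58.1% ± 1.99 of the 4 genes' level per length in fetal, 60.5% ± 0.142 in neonatal and 43.9% ± 2.25 in adult cells, and Sec24c 22.6% ± 2.57, 20.1% ± 0.373 and 35.0% ± 1.12 (SD, n = 3).

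**Figure D4:**
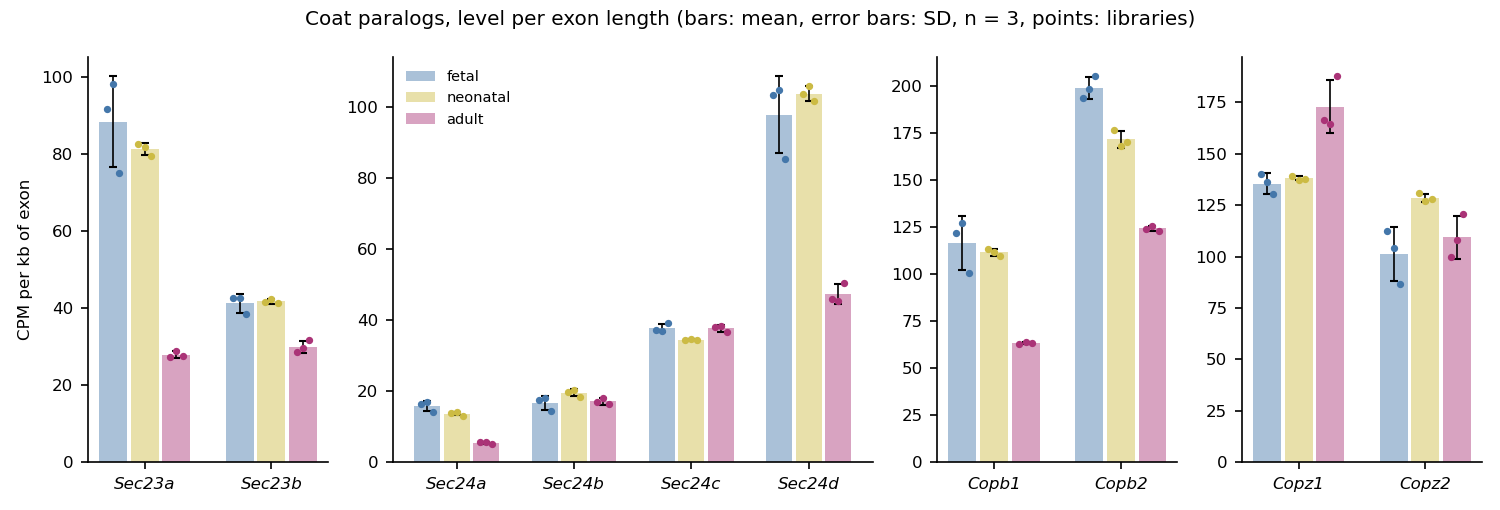
Level per exon length (CPM per kb, vertical axes from 0) of coat paralogs at each age, as means (bars) with SD (error bars, n = 3) and libraries (points). Sec23a, Sec24a, Sec24d, Copb1 and Copb2 are lowest in adult cells, where Sec23a drops to the level of Sec23b, while Sec24b and Sec24c stay near their fetal level and Copz1 is highest.

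The other COPII genes build the outer coat and the sites of budding. Sec31a, the outer-coat rod, fell by 27.1% and Sec13, its partner, by 31.2% in adult against fetal (adjusted p = 0.00195 and 3.55e-05). Sec13 stayed lower with the length trend removed (-0.72), whereas Sec31a was not called in adult against fetal (-0.16) or neonatal (-0.15). Sec31b held 0.303% ± 0.130 of the Sec31 pair's level per length in fetal cells, had 4 to 24 counts in any library and was called lower against fetal (-1.07 ± 0.41; adjusted p = 0.039), but the call was lost without fetal replicate 2 or 3, neonatal replicate 1, 2 or 3 or adult replicate 1, 2 or 3 (log2 fold change -1.22 to -0.89) and with the length trend removed (-0.87, and -0.90 in adult against neonatal). Sec16a, the scaffold of exit sites and with 8889 bases the member with the longest exons, was at 256, 268 and 209.6 CPM (fetal), 240.1, 244 and 236 (neonatal) and 174, 179 and 168 (adult). It fell without overlap (-0.49 ± 0.089 against fetal, adjusted p = 0.000805), yet its sign changed with the length trend removed. It was then not called against fetal (0.18) and called higher against neonatal (0.21, adjusted p = 0.0391). Sec16b peaked in neonatal cells, at 12.7, 13.1 and 16.5 CPM (fetal), 16.9, 17.9 and 19.6 (neonatal) and 10.1, 11.4 and 10.6 (adult). Neonatal libraries were the 3 highest, and the fall from neonatal to adult was -0.76 ± 0.13 (adjusted p = 0.000646). Against fetal the adult fall was -0.40, and the call was lost without adult replicate 1 (log2 fold change -0.35). With the length trend removed Sec16b was still lower in adult against neonatal (-0.43) and was not called in adult against fetal (-0.11) or neonatal against fetal (0.32). Sec22b, a fusion SNARE of these vesicles, fell by 29.6% (adjusted p = 3.07e-05).

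The COPI coat returns escaped proteins from the Golgi. Of its 8 genes 2 rose (Cope and Copz1), 5 fell (Copa, Copb1, Copb2, Copg1 and Copg2) and 1 (Copz2) was not called in adult against fetal, and 2 rose, 4 fell and 2 were not called in adult against neonatal. Its summed level was 2284 to 2589 CPM (fetal), 2385 to 2462 (neonatal) and 1706 to 1833 (adult). Copb1, for the beta subunit, was at 407, 425 and 335 CPM in fetal replicates 1 to 3, 377, 373 and 366 in the neonatal libraries and 210.4, 213 and 211 in the adult libraries. Adult libraries were lowest with no overlap, a fall of 45.6% against fetal (-0.88 ± 0.088; adjusted p = 1.68e-05) that stayed with the length trend removed (-0.72). Copb2, for the beta-prime subunit, was at 445, 456 and 471 CPM in fetal replicates 1 to 3, 406, 386 and 391 in the neonatal libraries and 285, 289 and 283 in the adult libraries. Its 3 ages did not overlap, and it fell by 13.8% in neonatal (adjusted p = 0.0196) and 37.5% in adult against fetal cells (adjusted p = 6.25e-06). Copa and Copg1 fell by 40.0% and 40.4% in adult against fetal (adjusted p = 9.78e-05 and 2.20e-05). The fall of Copg2 was -0.18, and the call was lost without fetal replicate 2 or adult replicate 2 (log2 fold change -0.18 to -0.15). It was not called with the length trend removed (-0.05), where Copa was still lower (-0.45).

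The small zeta subunits behaved otherwise. Copz1 was at 242, 235 and 225 CPM in fetal replicates 1 to 3, 241, 238 and 238 in the neonatal libraries and 288, 285 and 325 in the adult libraries. Adult libraries were the 3 highest, a rise of 1.28-fold against fetal (0.35 ± 0.068; adjusted p = 0.00121), also called with the length trend removed (0.26). Copz2, whose product can replace that of Copz1, was at 103, 95.2 and 79.0 CPM (fetal), 119, 116 and 117 (neonatal) and 91.0, 98.8 and 110.0 (adult). Neonatal libraries were highest, with a rise over fetal of 1.27-fold (0.35 ± 0.10; adjusted p = 0.0271), and the adult libraries overlapped the fetal. With the length trend removed Copz2 was called lower in adult against neonatal (-0.55). Cope was called higher in adult against fetal at 0.19 ± 0.075 (adjusted p = 0.0491), but the call was lost without fetal replicate 1 or 2, neonatal replicate 1, 2 or 3 or adult replicate 3 (log2 fold change 0.11 to 0.19), and it was called lower (-0.15) with the length trend removed. Against neonatal cells Cope was at 0.26 ± 0.075 (adjusted p = 0.0123), where the call was lost without neonatal replicate 2 (log2 fold change 0.24), and at -0.09 with the length trend removed.

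Of the 8 p24 genes tested, 2 rose (25%), 2 fell (25%) and 4 were not called in adult against fetal, beside 34.9% and 35.5% of all genes. Tmed7, at 164, 179 and 149 CPM in fetal replicates 1 to 3, 133, 151 and 152 in the neonatal libraries and 82.8, 86.3 and 90.3 in the adult libraries, was lowest in the 3 adult libraries. It fell by 47.2% against fetal (-0.92 ± 0.085; adjusted p = 9.72e-06) and stayed lower with the length trend removed (-0.75). Tmed2, the main beta-class p24 protein, fell by 23.3% (adjusted p = 0.000571). Its usual partner Tmed10 was at 343, 367 and 358 CPM in fetal replicates 1 to 3, 419, 403 and 418 in the neonatal libraries and 422, 431 and 438 in the adult libraries. All fetal libraries were below all others, and Tmed10 rose 1.16-fold in neonatal and 1.21-fold in adult against fetal cells (adjusted p = 0.0207 and 0.0025), although the adult rise was not called with the length trend removed (0.09). Tmed3 was at 143, 144 and 88.1 CPM in fetal replicates 1 to 3, 169.9, 166 and 173 in the neonatal libraries and 192, 179 and 179 in the adult libraries. Fetal replicate 3 was the lowest of all, and the adult rise over fetal of 0.55 ± 0.16 (adjusted p = 0.0121) was 0.35 and still called without it. Tmed3 was not called with the length trend removed (0.38). Tmed9 was called in adult against neonatal alone of the 3 comparisons (0.26 ± 0.072; adjusted p = 0.0113), where the call was lost without neonatal replicate 2 (log2 fold change 0.23) and with the length trend removed (0.11). Tmed5 was called in neonatal against fetal alone (-0.37 ± 0.12; adjusted p = 0.0342).

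Of the 7 stress sensors and factors 4 rose (Ddit3, Herpud1, Xbp1 and Atf4) and 3 fell (Ern1, Atf6 and Creb3l1) in adult against fetal, beside 34.9% and 35.5% of all genes. The 3 that fell encode membrane-bound proteins, as does Herpud1, and have exons of 2954 (Ern1), 3217 (Atf6) and 2642 (Creb3l1) bases. Those that rose have 861 (Ddit3), 1844 (Herpud1), 1841 (Xbp1) and 1410 (Atf4) bases. Of genes that are not members, Eif2ak3, which encodes the sensor PERK, was not called (0.16; adjusted p = 0.106), and Atf6b rose. Ern1 encodes IRE1, the sensor that splices Xbp1 RNA. It was at 14.96, 16.7 and 13.8 CPM in fetal replicates 1 to 3, 13.2, 12.1 and 11.5 in the neonatal libraries and 9.33, 7.22 and 6.44 in the adult libraries. The 3 ages did not overlap. Ern1 fell by 49.4% in adult against fetal (-0.98 ± 0.15; adjusted p = 0.000324) and stayed lower with the length trend removed (-0.87). Atf6, whose product is cut in the Golgi to free a transcription factor, was at 81.7, 90.6 and 61.5 CPM in fetal replicates 1 to 3, 97.7, 99.7 and 87.2 in the neonatal libraries and 56.6, 52.8 and 52.4 in the adult libraries. Adult libraries were the 3 lowest, and Atf6 fell by 30.9% against fetal (-0.53 ± 0.13; adjusted p = 0.00456) and 43.2% against neonatal (adjusted p = 0.000448). Creb3l1 encodes OASIS, a membrane-bound factor known to act on the collagen I gene in bone. It was at 176, 166 and 160.2 CPM in fetal replicates 1 to 3, 185, 189 and 189.7 in the neonatal libraries and 107, 103 and 110.1 in the adult libraries. Neonatal libraries were highest and adult lowest without overlap, with a fall of 43.2% from neonatal (-0.82 ± 0.059; adjusted p = 3.42e-06) and 36.3% from fetal. Creb3l1 was 0.17 ± 0.058 in neonatal against fetal (adjusted p = 0.0511), just outside the threshold.

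Downstream, Xbp1 was at 197, 191 and 206 CPM in fetal replicates 1 to 3, 204, 203 and 210.0 in the neonatal libraries and 293, 251 and 247 in the adult libraries. Adult libraries were the 3 highest, a rise of 1.33-fold against fetal (0.41 ± 0.076; adjusted p = 0.000898) that was also called with the length trend removed (0.34). These are counts per gene, so the spliced and unspliced forms of Xbp1 were not told apart. Ddit3 encodes CHOP, a factor tied to cell death under lasting stress. It was at 34.7, 33.9 and 30.8 CPM in fetal replicates 1 to 3, 44.2, 44.6 and 43.4 in the neonatal libraries and 58.6, 68.2 and 86.5 in the adult libraries. The ages did not overlap and rose in order, 2.15-fold in adult against fetal (1.10 ± 0.13; adjusted p = 4.40e-05) and 1.61-fold against neonatal (0.69 ± 0.13; adjusted p = 0.00109), and with the length trend removed the rise against fetal was 0.77. The neonatal rise over fetal was 0.41 ± 0.13 (adjusted p = 0.0319), and the call was lost without fetal replicate 1, 2 or 3 or neonatal replicate 1, 2 or 3 (log2 fold change 0.36 to 0.44). Ddit3 shares 62 exon bases with Mars on the opposite strand, and counting did not use strand. Atf4, at 628, 605 and 609 CPM in fetal replicates 1 to 3, 681, 658 and 662 in the neonatal libraries and 644, 745 and 818 in the adult libraries, rose 1.20-fold in adult against fetal (0.26 ± 0.088; adjusted p = 0.024). Adult replicate 1 lay between the fetal and the neonatal libraries, the call was lost without fetal replicate 1 or 2 or adult replicate 2 or 3 (log2 fold change 0.18 to 0.27), and with the length trend removed Atf4 was not called (0.11). Herpud1 encodes a membrane protein of the degradation machinery. It was at 154, 145 and 88.9 CPM in fetal replicates 1 to 3, 191, 189 and 190.4 in the neonatal libraries and 194, 196 and 208 in the adult libraries. Fetal replicate 3 was the lowest, and the rises of 0.56 ± 0.17 in neonatal (adjusted p = 0.0315) and 0.62 ± 0.17 in adult against fetal (adjusted p = 0.00879) were 0.35 and 0.41 without it, both still called. The neonatal call of Herpud1 was lost without each of 3 other libraries in turn (log2 fold change 0.561 to 0.565).

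The stress factors act through short promoter elements, so these were searched in RefSeq promoters (assembly GRCr8, 250 bases before to 50 after each start) for the 53 members with an entry. The ER stress response element (CCAAT, then 9 bases of any kind, then CCACG, on either strand) was in 5 of 53 members (9.43%) and in 0.188% of the 9039 promoters of genes tested here. Its second form (ATTGG, 1 base, CCACG) was in Herpud1 (0.111% of tested genes). The XBP1 and ATF6 element TGACGTGG was in 4 members, Copa, Copb1, Copb2 and Sec23a (7.55%, beside 0.907%), and the ATF4 element (TGATG, 1 base, AA) in Herpud1 alone among members (1.89%, beside 1.81%). Chaperones and XBP1 are textbook carriers of the first element, and the members entered by names that reflect this, so the shares are a description. The stretches with the elements are printed 5′ to 3′ on the gene's strand, with the fixed letters in capitals, for the carriers of the first element, which differed in direction between adult and fetal cells, for Herpud1, and for Sec23a and Copb2 of the TGACGTGG carriers. The stretches of Copa and Copb1, where that element lies across or after the start, are not printed.
Hspa5: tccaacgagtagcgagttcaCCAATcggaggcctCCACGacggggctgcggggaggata
Hsp90b1: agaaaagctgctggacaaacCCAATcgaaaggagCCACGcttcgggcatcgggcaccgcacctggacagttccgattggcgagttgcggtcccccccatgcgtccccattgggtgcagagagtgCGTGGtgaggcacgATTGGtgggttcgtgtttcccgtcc
Canx: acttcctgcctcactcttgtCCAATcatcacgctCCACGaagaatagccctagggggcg
Calr: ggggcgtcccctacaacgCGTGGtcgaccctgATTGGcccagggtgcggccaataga
Xbp1: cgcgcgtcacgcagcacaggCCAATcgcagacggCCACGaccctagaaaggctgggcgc
Herpud1: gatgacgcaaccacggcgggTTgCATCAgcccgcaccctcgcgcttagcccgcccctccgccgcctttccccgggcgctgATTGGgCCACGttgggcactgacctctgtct
Sec23a: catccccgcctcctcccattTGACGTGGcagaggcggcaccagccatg
Copb2: agagccgcttcccggaagttCCACGTCAgt
On GRCr8 these are Hspa5 at chr3:38452953-38453011, plus strand, Hsp90b1 at chr7:23012327-23012489, minus strand, Canx at chr10:35158049-35158107, minus strand, Calr at chr19:40213117-40213173, plus strand, Xbp1 at chr14:84604538-84604596, plus strand, Herpud1 at chr19:10614801-10614911, minus strand, Sec23a at chr6:82440968-82441015, minus strand and Copb2 at chr8:108040657-108040686, plus strand. Of the 5 carriers of the first element, Hspa5, Hsp90b1 (which holds 2 copies) and Canx fell and Calr and Xbp1 rose in adult against fetal cells. With the length trend removed Hspa5, Canx and Calr were not called, while Hsp90b1 was still lower and Xbp1 still higher. The 4 carriers of TGACGTGG all fell, at -1.66 (Sec23a), -0.88 (Copb1), -0.74 (Copa) and -0.68 (Copb2) on the log2 scale, and Herpud1 rose. Those 4 are genes of the COPI or COPII coat, where 5 of 8 and 10 of 13 fell, beside 35.5% of all genes. Changes of the other tested genes with TGACGTGG were not counted, and a link between an element and a change was not tested. A match of letters does not show that a factor binds there.

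Other genes of the pathway that are not members were counted in 7 lists. Over all of them 30 of 119 tested rose, 48 fell and 41 were not called in adult against fetal, with a median log2 fold change of -0.09, beside 34.9% rising and 35.5% falling and a median of -0.01 over all genes. In neonatal against fetal 16 rose, 15 fell and 88 were not called, beside 18.3% and 18% of all genes. The counts per list below stand beside these same shares. In the CREB3 family and its proteases 1 of 5 rose and 3 fell in adult against fetal. Creb3l2, whose product is known to drive Sec23a in cartilage cells, was at 184, 192 and 154 CPM in fetal replicates 1 to 3, 137, 139 and 124 in the neonatal libraries and 53.5, 50.7 and 56.9 in the adult libraries. It was lower at each later age without overlap, by 24.4% in neonatal (adjusted p = 0.00892) and 69.6% in adult against fetal (-1.72 ± 0.095; adjusted p = 3.73e-07), beside the -1.66 of Sec23a. Whether the falls of Creb3l2 and Sec23a are linked was not tested. Atf6b rose in adult against fetal (0.28; adjusted p = 0.0329) with overlapping libraries.

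In the PERK and integrated stress response list 5 of 18 rose and 9 fell in adult against fetal, with a median of -0.34. Atf3, an early stress factor, was at 8.96, 11.5 and 12.3 CPM in fetal replicates 1 to 3, 10.6, 9.76 and 10.8 in the neonatal libraries and 124, 60.1 and 92.8 in the adult libraries. Adult libraries were far above the rest, 8.44-fold over fetal (3.08 ± 0.25; adjusted p = 5.33e-06). Psat1, a serine synthesis enzyme under ATF4, fell to 28.5, 51.8 and 65.8 CPM in adults from 185 to 195 CPM in fetal cells (-1.96 ± 0.24; adjusted p = 9.14e-05). The list thus held strong changes in both directions.

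The further folding genes that respond to ATF6 and XBP1 gave 2 rises and 2 falls among 8. Sdf2l1, a BiP cofactor, was at 27.4, 23.4 and 25.0 CPM in fetal replicates 1 to 3, 17.5, 18.3 and 17.1 in the neonatal libraries and 71.0, 61.7 and 63.8 in the adult libraries. It was lowest in neonatal and highest in adult cells without overlap (1.37 ± 0.087 against fetal; adjusted p = 8.69e-07). Dnajc10, a disulfide reductase, fell (-0.47 ± 0.095; adjusted p = 0.00153). In disulfide and glycoprotein folding 5 of 22 rose and 8 fell, led by Erp29 (1.27 ± 0.089; adjusted p = 1.72e-06) and Tmx1 (-1.27 ± 0.079; adjusted p = 7.75e-07). In degradation 5 of 14 rose and 4 fell, with the lectin gene Os9 at 1.17 ± 0.14 (adjusted p = 5.39e-05) and the mannosidase-like gene Edem3 at -1.34 ± 0.082 (adjusted p = 6.76e-07). In targeting and oligosaccharyl transfer 2 of 19 rose and 9 fell, with Srp14 of the signal recognition particle at 0.52 ± 0.092 and Magt1 of the glycosylation complex at -1.41 ± 0.096. In other traffic between reticulum and Golgi 10 of 33 rose and 13 fell, with the cargo receptor genes Mcfd2 at 0.84 ± 0.058 and Surf4 at -0.97 ± 0.10.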

How the data were processed

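RNA from 9 cultured cell samples was sequenced, 3 per age. The authors counted reads per gene on rn6 with featureCounts 1.6.3, giving options for annotation and output alone, per the file headers, and deposited raw counts with each gene's exon length; that program's defaults are unstranded and leave out reads mapped to several places. Trimmomatic 0.39, STAR 2.5.2b, FastQC, Subread 1.6.3 and DESeq2 are named in the submitters' processing notes. The deposited normalized table was not used.

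The members, role groups, pathway and marker lists were chosen with earlier results of these data known. All 61 member symbols matched RefSeq. Genes passing filterByExpr (11337 of 17337) were fitted in edgeR 4.0.16 (R 4.3.3) with TMM factors, robust quasi-likelihood and age as the only term over 9 libraries. Tests were two-sided, and p-values were adjusted by Benjamini-Hochberg over all genes tested, with 0.05 as threshold. The SE of a log2 fold change is its size over the square root of its F. The code was tested on simulated data. No pair of libraries of 1 age agreed within counting noise (chi-square per degree of freedom 2.05 to 97.3), but the pairs differed widely. Neonatal pairs were at 2.05 to 2.76 and fetal replicates 1 and 2 at 3.94. Pairs with fetal replicate 3 were at 90.0 and 97.3, and adult pairs at 6.76 to 43.0. Alternatives were DESeq2 1.42.0, RLE or library-size scaling, no filter, 2 ages per fit, a replicate block, a non-robust fit, a minimum log2 change of 0.5 (glmTreat), each library left out, and, chosen after seeing the data, removal of the trend on exon length. Paralogs could share reads, and such reads were left out where they mapped to several places. Genes named with values were the 13 listed by name, the largest rise and fall per role group and comparison, members of log2 size 1 or more, their paralogs and, per other list, the largest rise and fall in adult against fetal. Other members named (Ssr1 to Ssr3, Spcs1, Spcs2, Sec63, Pdia3, Pdia6, Sec22a, Sec22b, Copa, Cope, Copg1, Copg2 and Tmed2) were chosen after their values were seen, as was Eif2ak3, which is not a member. A list of plasma and B cell markers is not reported here.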

Additional observations from a re-analysis of the deposited data

How the results depend on the processing

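Of the 106 called differences of single members, 59 were called in the same direction under every alternative other than the test of a minimum change, and 10 changed sign under at least 1. Under that test, of a log2 change of at least 0.5, 0 members were called in neonatal against fetal (0 higher and 0 lower), 16 (3 and 13) in adult against fetal and 11 (0 and 11) in adult against neonatal. Plain library-size scaling gave 31 (2 higher and 29 lower) and a median of -0.218 in neonatal against fetal, 9 higher and a median of -0.373 in adult against fetal, and a median of -0.109 in adult against neonatal. That last median was -0.196 with no filter and -0.196 with the length trend removed. Leaving out 1 library gave 5 to 27 called members in neonatal against fetal (1 to 8 higher, 4 to 19 lower, median -0.084 to -0.023), 41 to 51 in adult against fetal (10 to 14 higher, 31 to 37 lower, median -0.307 to -0.248), 32 to 47 in adult against neonatal (7 to 13 higher, 25 to 34 lower, median -0.190 to -0.168) and 41 to 56 for any difference. The cause of these shifts was not tested. Shares of all genes called under each alternative, here and with the replicate block below, are not given. These member counts therefore do not set members apart from other genes.

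With the length trend removed the sign changed, in adult against neonatal, for Canx (0.013), Cope (-0.094), Sec11c (-0.205), Sec16a (0.212), Sec63 (0.183), Ssr4 (-0.087) and the uncalled Atf4 (-0.003) and Hspa5 (0.058), and in adult against fetal for Cope (-0.154), Sec16a (0.185), Sec61b (-0.170), Sec63 (0.217) and the uncalled Sec24c (0.292). Uncalled values also changed sign with library-size scaling (neonatal against fetal: Atf4 -0.051, Creb3l1 -0.002, Xbp1 -0.119; Hspa5 0.033 in adult against neonatal; Sec24b -0.062 in adult against fetal) and without 1 library (Hspa5 in adult against neonatal ran from -0.064 to 0.016, Sec24b in adult against fetal from -0.061 to 0.102 and Sec24c from -0.027 to 0.019).

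The replicate numbers did not pair the libraries: deviations of same-numbered libraries correlated between -0.0649 and 0.0521. The replicate block gave 15 called members (6 higher, 9 lower) in neonatal against fetal, 45 (13 and 32) in adult against fetal and 36 (11 and 25) in adult against neonatal. Depth limits mainly Sec31b, with at most 24 counts in a library, and Tmed6, with 0.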
